A study of Saccharomyces cerevisiae with 24 samples.

Results

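Ty elements are the retrotransposons of budding yeast, and their long gag-pol open reading frames were followed here across 4 Saccharomyces cerevisiae strains with and without caffeine. The members were chosen by name, as 38 gag-pol open reading frames of the R64 reference annotation, out of 6713 transcripts quantified. They comprised 31 open reading frames of Ty1, 4 of Ty2, 2 of Ty3 and 1 of Ty4. RNA was sequenced from the laboratory strain BY4742, named S288C here for its background, and from YPS606 (YPS), Y55 and UWOPS87-2421 (UWOP). Every culture grew in synthetic defined medium and was harvested at an optical density of 0.4, either without the drug or after 4 h in 20 mM caffeine. Each of the 8 groups held 3 libraries of poly(A)-selected RNA, and a single library is named below by its number in the labels. The labels do not say that libraries of a group came from separate cultures, so p-values measure only the spread between these libraries.

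Ty elements are flanked by long terminal repeats and move through an RNA copy that is packed into virus-like particles and reverse-transcribed. Gag forms the particle, and Pol supplies protease, integrase, reverse transcriptase and RNase H after a programmed +1 frameshift in the overlap of gag and pol. Ty1, Ty2 and Ty4 belong to the copia-like elements and Ty3 to the gypsy-like ones. Transcription of Ty1 starts in the long terminal repeat and depends on regulators such as Ste12 and Tec1, which also serve mating and filamentous growth, and new copies of Ty1 and Ty3 insert upstream of tRNA genes.

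The 38 open reading frames lay on 13 chromosomes. Measured from the ends of the whole element, where 1 is annotated, 29 of them (76.32%) were within 1000 bp of a tRNA gene. Among protein-coding genes, which have no such element ends, 427 of 6002 (7.114%) were, so the shares are not measured alike. The R64 annotation placed 37 in a named element. The exception, YLR035C-A (chrXII:215440-218907, minus strand), was 97.72% identical to the Ty1 copy YBR012W-B and at most 77.34% identical to Ty2, and was counted in Ty1. Ty1 copies were 83.51 to 99.98% identical to each other in 465 pairs (median 97.06%), whereas Ty1 and Ty2 shared 73.09 to 79.25%. Of all 31-base words of a copy, a median of 0.592% occurred nowhere else among the transcripts for Ty1, and 11 of the 31 Ty1 copies had no such word. The Ty3 copies had 22.9 and 24.35% unique words and Ty4 17.8%. Most Ty1 and Ty2 reads thus matched several copies and were divided among them by estimation, so family sums are given beside single copies. Reads from elements of YPS, Y55 or UWOP could be counted only where they matched the reference. Those reads were divided among the reference copies they matched. A copy with reads in those strains need not be present at that site. Reads too unlike the reference, which comes from S288C, would go uncounted, and how many did was not tested. Element number in the DNA, RNA per element and loss of such reads cannot be told apart.

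The frameshift site is shown for 1 member of each family because it joins the gag and pol parts of each of these open reading frames. Each line gives 37 bases of the coding strand, with the 7 bases of the frameshift site in capitals, for YDR365W-B at chrIV:1208284-1208320 (plus strand), YOR192C-B at chrXV:708421-708457 (minus), YGR109W-B at chrVII:708447-708483 (plus) and YJL113W at chrX:198984-199020 (plus).
Ty1 YDR365W-B: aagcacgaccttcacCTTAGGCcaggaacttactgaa
Ty2 YOR192C-B: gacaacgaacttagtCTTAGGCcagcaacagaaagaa
Ty3 YGR109W-B: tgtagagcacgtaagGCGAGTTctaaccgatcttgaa
Ty4 YJL113W: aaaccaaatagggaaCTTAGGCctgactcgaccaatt
CTTAGGC stood at the annotated junction in 29 of 29 Ty1 copies with a gag part, 4 of 4 Ty2 copies and the Ty4 copy, and GCGAGTT in both Ty3 copies. The other 2 Ty1 copies, YAR009C and YLR035C-A, have no gag part. On either strand, CTTAGGC occurred in 275 of 230718 windows of 37 bases from transcripts (0.1192%) and GCGAGTT in 360 (0.156%).

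Libraries held 8714049 to 29524968 estimated counts, and 3 counts were worth 0.0941 to 0.362 CPM, the usual scaling of a count to library size, taken here after TMM normalization. The labels were checked on marker genes: LEU2, LYS2 and URA3, which are deleted in BY4742, stayed at or below 0.181 CPM in its 6 libraries. HIS3, also listed as deleted in BY4742, went the other way. It was read at 87.9 to 108.1 CPM in S288C without caffeine and 120.0 to 190.2 CPM with it. In each medium this lay above every library of the other strains, and the cause was not tested. In YPS, HIS3 was read at 4.39 to 8.36 CPM without caffeine and 30.0 to 38.7 CPM with it. URA3 was high there, at 2519 to 2615 CPM without caffeine and 484 to 817 CPM with it. URA3 differed among the Y55 and UWOP libraries. It was 2.25 CPM in Y55 library 27, 0.36 in Y55 caffeine library 31, 0.0510 in UWOP library 28 and 0.0414 in UWOP caffeine library 32, against 26.0 to 170.6 CPM in the other 8. All 4 carry numbers from 25 to 32, a run that holds 1 library of every group. Y55 and UWOP differed in only 4 transcripts in each medium (edgeR quasi-likelihood test, Benjamini-Hochberg adjusted p below 0.05), all of the 2-micron plasmid, so these strains cannot be read as independent backgrounds here. Y55 caffeine library 39 had a weaker caffeine response than the other caffeine libraries, with a mean log2 shift of 0.764 over 263 responsive transcripts against 1.25 to 1.65 in the others. With caffeine, of 6 a-specific genes 6, 5, 4 and 5 rose in S288C, YPS, Y55 and UWOP, and of 4 alpha-specific genes 4, 4, 2 and 3 fell. Of all transcripts 27.5, 20.5, 8.64 and 14.7% rose and 25.0, 20.0, 5.77 and 13.0% fell. The a-specific MFA1, MFA2 and AGA2 were near the floor, at most 0.481 CPM in any library without caffeine. The list medians were 3.03, 2.32, 1.56 and 1.99 for a-specific and −1.60, −1.17, −0.50 and −0.78 for alpha-specific genes on the log2 scale. The part of these genes in the Ty results was not tested. Results that moved without the 4 libraries low in URA3 or without Y55 caffeine library 39 are given beside the full values.

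Reads assigned to Ty1 were far more abundant in S288C than in the other strains. Without caffeine the Ty1 sum was 14874, 16362 and 15635 CPM in S288C, or 1.43 to 1.50% of all counts. The YPS libraries held 199, 195 and 269 CPM, those of Y55 1264, 2055 and 1608 CPM, and those of UWOP 1336, 1372 and 1525 CPM. The lowest S288C library lay above every library of the other strains, and every YPS library lay below every Y55 and UWOP library. The sum was 70.6-fold lower in YPS than in S288C (log2 fold change −6.14, SE 0.27, adjusted p = 3.1e-13), 9.51-fold lower in Y55 (−3.25, SE 0.24, adjusted p = 7.0e-10) and 11.1-fold lower in UWOP (−3.47, SE 0.24, adjusted p = 3.4e-10). The 3 comparisons share the S288C libraries.

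Ty2 was also highest in S288C, and Ty3 was highest in YPS. S288C held a Ty2 sum of 515 ± 15.7 CPM (SD, n = 3), YPS 78.0 ± 9.64, Y55 83.0 ± 25.9 and UWOP 68.4 ± 3.48, and S288C did not overlap the rest. Its log2 fold changes were −2.72, −2.64 and −2.91. The Ty3 sum was 194.8, 204.0 and 196.2 CPM in S288C and rose to 545.8, 541.5 and 448.9 CPM in YPS. It was 65.95 to 79.24 CPM in Y55 and 74.98 to 83.03 CPM in UWOP, below every S288C library. YPS thus exceeded S288C 2.58-fold for Ty3 (log2 fold change 1.37, SE 0.10), while Y55 and UWOP fell below it (−1.44 and −1.33). The Ty4 member YJL113W was read at 8.97, 6.80 and 9.01 CPM in S288C and 8.69 ± 0.348 CPM in YPS, overlapping groups that did not pass the test (log2 fold change 0.08, SE 0.21, adjusted p = 0.813). It had 0 counts in all 6 libraries of Y55 and UWOP without caffeine, at least 34.8-fold lower in Y55 and 49.2-fold lower in UWOP than in S288C.

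**Figure D1:**
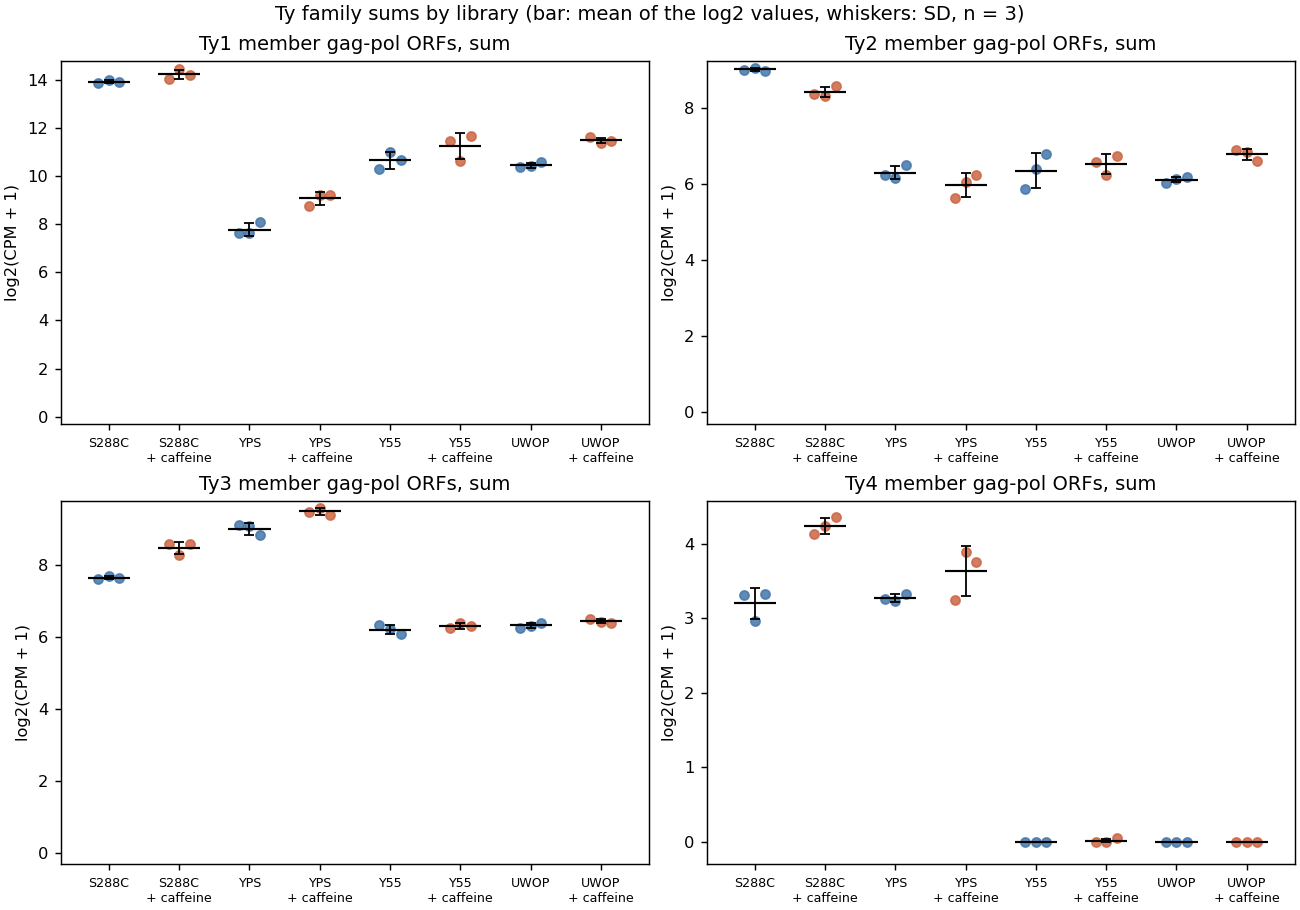
Summed expression of the gag-pol open reading frames of each Ty family, as log2(CPM + 1), in 4 strains without caffeine (blue) and with caffeine (red); points are libraries, bars the mean of the log2 values and whiskers the SD (n = 3). S288C is highest for Ty1 and Ty2, YPS is highest for Ty3, and Y55 and UWOP lie at 0 for Ty4 but for 1 caffeine library of Y55 with 1 count.

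Per kilobase of effective length, the copies of S288C spanned a wide range. Single Ty1 copies held 0.525 to 555 CPM per kb (median 73.3), Ty2 copies 9.85 to 54.3, the Ty3 copies 22.3 and 23.3, and Ty4 2.53. Summed over copies, Ty1 gave 3327 to 3642 CPM per kb in S288C and Ty3 44.8 to 47.0. In YPS, Ty3 gave more than Ty1 on this scale, at 103.0 to 125.3 CPM per kb against 43.2 to 59.8.

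Copy by copy, 34 of the 38 members were lower in YPS than in S288C without caffeine and 2 were higher, where 17.1% of all transcripts tested were lower and 21.0% higher. In Y55, 32 were lower and 1 was higher (13.9 and 20.0% of all transcripts), and in UWOP also 32 and 1 (15.8 and 20.8%). Without the 4 libraries low in URA3, the lower counts were 29 for Y55 and 30 for UWOP. For Ty1 alone, 30, 26 and 26 of the 31 copies were lower in YPS, Y55 and UWOP. The median log2 fold change over the 38 members was −11.50, −7.05 and −7.47 in these strains, where that of all transcripts was 0.03 or 0.04. The medians of the members come from fitted values that include copies at 0 counts, and are no bounds.

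The 3 leading Ty1 copies of S288C were assigned far fewer reads in the other strains, or none. YDR365W-B held 2390, 2638 and 2596 CPM in S288C, 16.3% of the Ty1 sum, and 0 in every YPS library. It was at least 17177-fold lower in YPS, and in Y55 and UWOP its 6 libraries without caffeine read 0 to 0.563 CPM. Such bounds hold for reads as assigned among similar copies. YER138C held 2047, 2900 and 2235 CPM in S288C and 7.11, 9.15 and 7.94 in YPS, a log2 fold change of −8.22 (SE 0.51, adjusted p = 7.1e-11). In Y55 and UWOP YER138C stood at 5.39 to 16.7 CPM (−8.04 and −7.58). YGR027W-B held 1254, 1281 and 1305 CPM in S288C and 0 counts in the 9 libraries of the other strains without caffeine, at least 8651-, 5401- and 7623-fold lower in YPS, Y55 and UWOP. Without caffeine, 20 of 31 Ty1 copies had at most 3 counts in each YPS library, 8 in each Y55 library and 10 in each UWOP library.

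**Figure D2:**
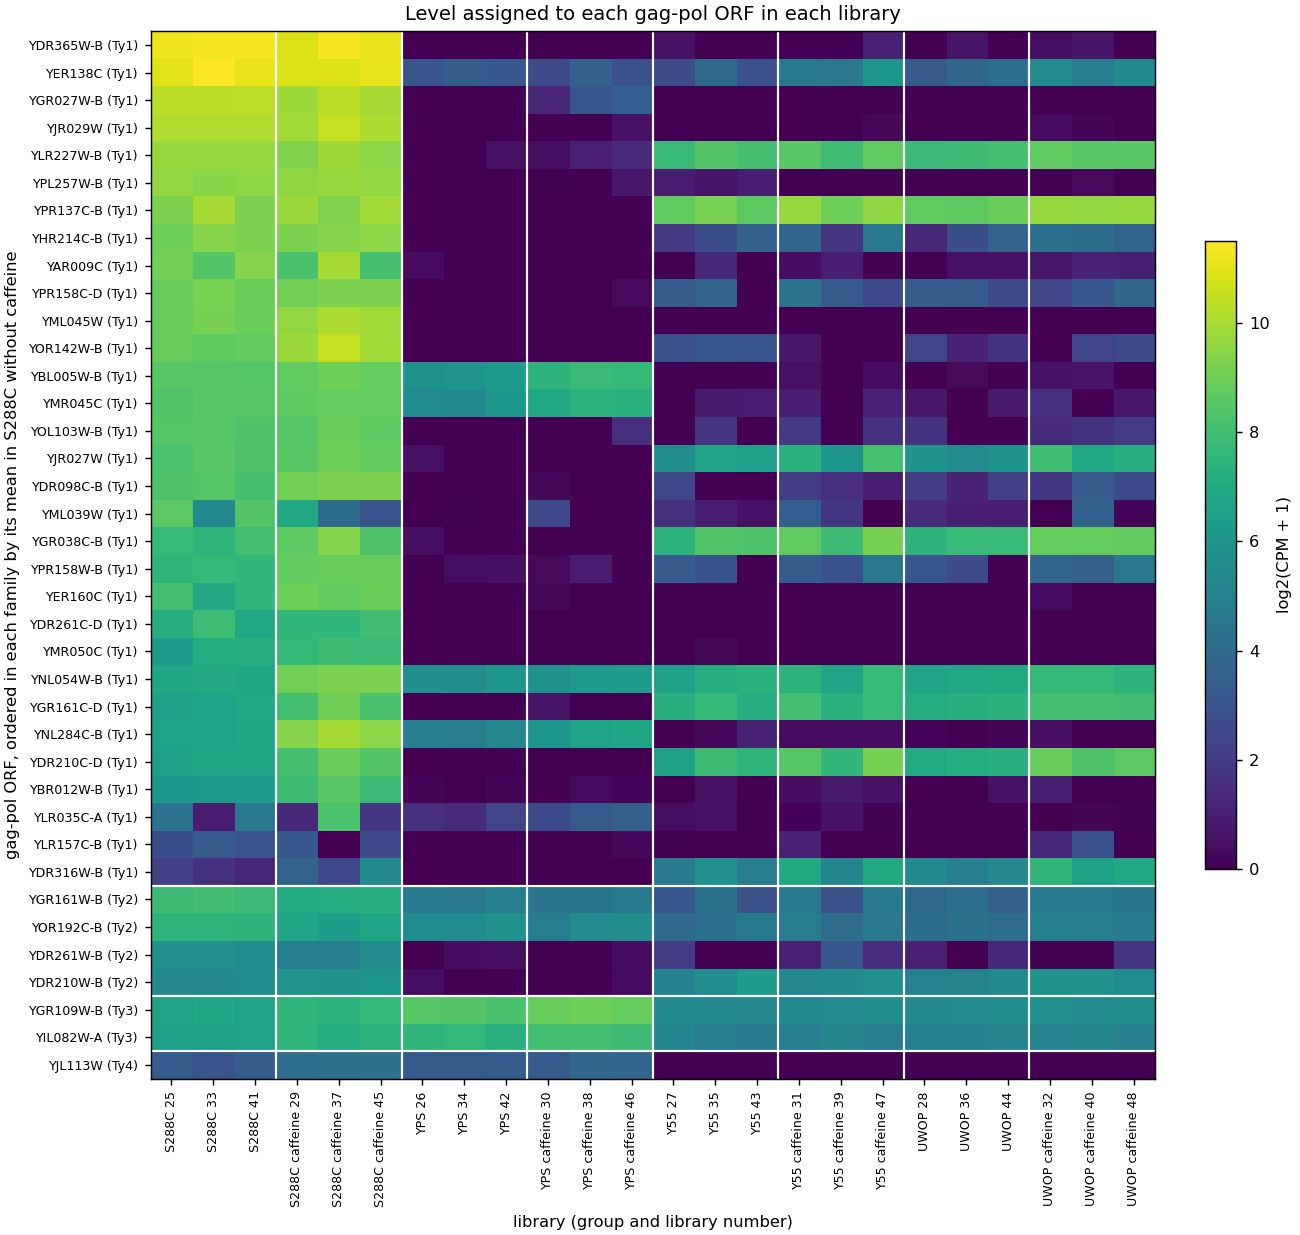
Expression of the 38 gag-pol open reading frames (rows, grouped by family and ordered by their mean in S288C) in the 24 libraries (columns, grouped by strain and caffeine); colour gives log2(CPM + 1). Most Ty1 rows are bright in S288C, 4 remain visible in YPS, and another set carries the signal in Y55 and UWOP.

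A few copies carried nearly all Ty1 reads in each of the other strains. In S288C 29 Ty1 copies averaged 10 CPM or more and the leading 4 held 47.0% of the sum. In YPS only YBL005W-B, YMR045C, YNL054W-B and YNL284C-B averaged 10 CPM or more, and they held 94.8%. YBL005W-B was the highest, at 57.8, 62.2 and 80.4 CPM in YPS against 365, 369 and 356 in S288C (log2 fold change −2.44, SE 0.28, adjusted p = 1.5e-06). YNL054W-B had the smallest deficit of the called copies, at 54.5, 49.9 and 67.1 CPM in YPS against 108.4, 121.7 and 108.5 in S288C (−0.98, SE 0.21, adjusted p = 0.00085). In Y55 and UWOP 8 and 9 copies averaged 10 CPM or more, and the leading 4 held 72.0 and 72.4%.

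YPR137C-B led in both Y55 and UWOP. It was read at 411.9, 576.0 and 383.0 CPM in Y55 and 418.0, 396.7 and 462.9 in UWOP, against 600.0, 1001 and 609.8 in S288C and 0 in YPS. Every Y55 and UWOP library lay below every S288C library, by −0.69 in Y55 (SE 0.23, adjusted p = 0.03) and −0.79 in UWOP (adjusted p = 0.013) on the log2 scale. The 4 Ty1 copies YDR210C-D, YGR038C-B, YGR161C-D and YNL054W-B and the Ty2 copy YDR210W-B did not pass the test against S288C in Y55 or UWOP. YDR316W-B was the single Ty1 copy called higher in Y55 and UWOP. It stood at 3.69, 2.11 and 1.34 CPM in S288C, 25.1, 55.1 and 27.9 in Y55 and 45.0, 29.6 and 41.2 in UWOP, groups that did not overlap (log2 fold changes 3.91, SE 0.75, and 4.00). YDR316W-B had 0 counts in all YPS libraries.

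A region of Ty1 in which the copies read in YPS differ from most others is printed below, chosen from the levels themselves and so given as a description. Capitals mark the 19 of 60 bases that differ between the forms. YBL005W-B at chrII:224632-224691 (plus strand) carries form 1, and YDR365W-B at chrIV:1210299-1210358 (plus strand) carries form 2.
Ty1 YBL005W-B, form 1 of the first window: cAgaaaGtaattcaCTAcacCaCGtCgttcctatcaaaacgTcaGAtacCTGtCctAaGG
Ty1 YDR365W-B, form 2 of the first window: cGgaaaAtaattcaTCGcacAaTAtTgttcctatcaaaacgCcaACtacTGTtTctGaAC
Form 1 was found in 9 Ty1 copies, among them all 4 copies averaging 10 CPM or more in YPS, and form 2 in the other 22, where YBR012W-B was placed in form 1 with 4 differences from it. The 9 copies held 96.0% of the Ty1 sum in YPS (95.1 to 96.74% in the 3 libraries) but 12.2% in S288C (11.79 to 12.45%), 18.8% in Y55 and 19.3% in UWOP.

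For Y55 and UWOP a second window of 60 bases was chosen in the same way, with 12 bases that differ. YPR137C-B at chrXVI:805343-805402 (minus strand) carries form 1 and YER138C at chrV:444098-444157 (minus strand) form 2.
Ty1 YPR137C-B, form 1 of the second window: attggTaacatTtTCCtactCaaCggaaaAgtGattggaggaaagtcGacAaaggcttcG
Ty1 YER138C, form 2 of the second window: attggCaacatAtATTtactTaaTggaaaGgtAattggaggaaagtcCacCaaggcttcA
Form 1 of this window stood in 8 copies, including 6 of the 7 that averaged 50 CPM or more in both Y55 and UWOP. The exception, YGR161C-D, read 144 to 209 CPM in Y55. YJR027W was placed in form 1 with 1 difference. Another 22 copies were placed in form 2, 14 of them with no difference from it, and YDR261C-D does not cover the window. The 8 copies held 85.2% of the Ty1 sum in Y55 (83.41 to 87.59%) and 84.1% in UWOP (83.72 to 84.45%), against 33.4% in S288C (32.75 to 34.46%) and 26.0% in YPS. YDR365W-B also carries form 1 of the second window, although it was nearly unread in Y55 and UWOP.

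**Figure D3:**
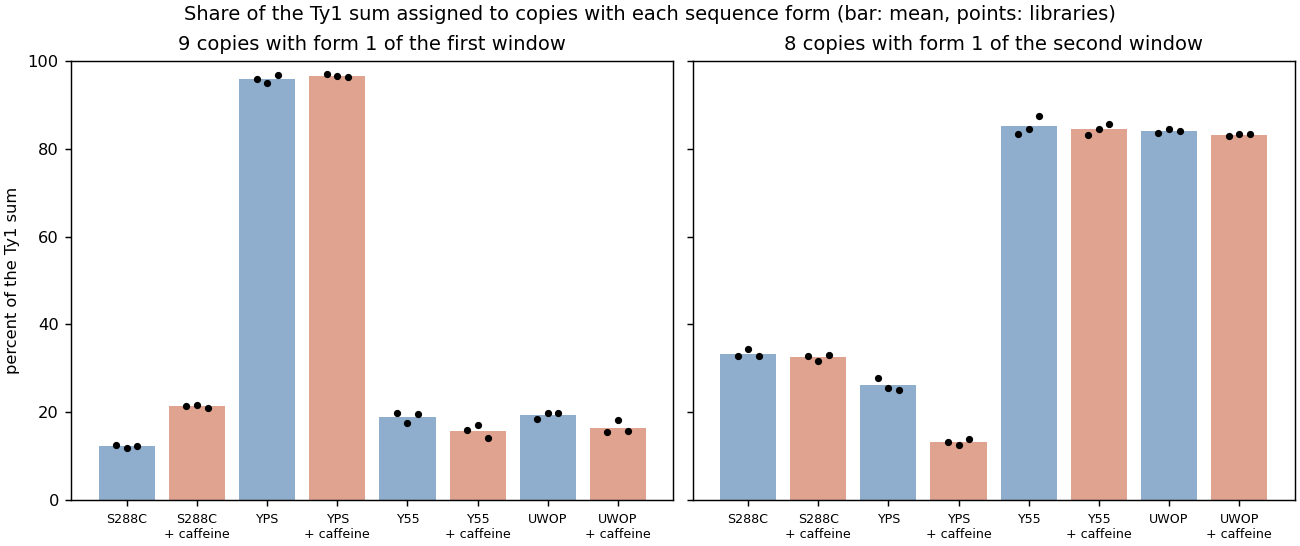
Percent of the Ty1 sum held by the 9 copies with form 1 of the first window (left) and the 8 copies with form 1 of the second window (right) in each strain without and with caffeine; bars are means of 3 libraries and points are libraries. The left share is 96.0% in YPS and 12.2% in S288C without caffeine, and the right share is 85.2% in Y55 and 84.1% in UWOP.

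Within Ty2 the copies also split by strain. YGR161W-B held 233.1, 248.4 and 230.9 CPM in S288C, 23.5 to 29.8 in YPS, 6.27 to 18.4 in Y55 and 10.7 to 17.0 in UWOP. Its log2 fold changes were −3.16 in YPS and −4.43 in Y55, without overlap. YFL002W-A, which is no member, is identical to YGR161W-B, so reads of the pair were split between them by estimation. YOR192C-B held 176.1 to 186.0 CPM in S288C and was the leading Ty2 member of YPS, at 46.9 to 58.8 CPM (−1.82). YDR210W-B showed the reverse arrangement, with 41.8, 41.2 and 47.1 CPM in S288C, 32.7, 46.9 and 79.0 in Y55, 33.2, 34.0 and 42.9 in UWOP and 0.346, 0 and 0 in YPS. It led Ty2 in Y55 and UWOP.

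Both Ty3 copies moved with their sum. YGR109W-B held 99.16, 108.2 and 97.94 CPM in S288C and 354.3, 337.8 and 290.8 in YPS (log2 fold change 1.69, SE 0.10, adjusted p = 2.2e-11). YIL082W-A held 95.47, 95.61 and 98.00 CPM in S288C and 191.4, 204.0 and 157.9 in YPS (0.94, SE 0.13, adjusted p = 9e-06). In Y55 and UWOP both were below S288C in every library, by −1.26 and −1.15 for YGR109W-B and −1.65 and −1.55 for YIL082W-A.

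In the caffeine medium the strain differences persisted. Against S288C, 36 members were lower and 2 higher in YPS (22.0 and 24.5% of all transcripts), 31 lower and 1 higher in Y55 (28.7 and 30.4%), and 31 lower and 1 higher in UWOP (26.4 and 28.1%). The higher members were both Ty3 copies in YPS and YDR316W-B in Y55 and UWOP. The Ty1 sum was 16950, 22217 and 18768 CPM in S288C, 433, 600 and 597 in YPS, 2804, 1577 and 3281 in Y55 and 3136, 2686 and 2800 in UWOP. The log2 fold changes against S288C were −5.15 (SE 0.26), −2.92 (SE 0.23) and −2.75 (SE 0.23), and the groups did not overlap. For Ty2 they were −2.44, −1.89 and −1.64, and for Ty3 1.01, −2.18 and −2.05. YJL113W was lower in YPS than in S288C in this medium (−0.63, SE 0.21, adjusted p = 0.0225), and it had 1 count in Y55 library 47 and 0 in the other Y55 and UWOP libraries, at least 109.6-fold and 132.4-fold lower. The YPS call for YJL113W was lost without YPS caffeine library 30 or S288C caffeine library 45, within a range of −0.77 to −0.45.

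Several members had under 4 counts in all 6 libraries of a strain although they averaged 10 CPM or more in another. In YPS these were 9 Ty1 copies, YDR210C-D, YDR261C-D, YDR316W-B, YDR365W-B, YHR214C-B, YML045W, YMR050C, YOR142W-B and YPR137C-B. In Y55 they were YDR261C-D, YER160C, YGR027W-B, YML045W, YMR050C and the Ty4 member YJL113W, and in UWOP the same set with YLR035C-A in place of YER160C. The Ty1 copies YDR261C-D, YML045W and YMR050C were thus shared by the 3 strains. YML045W held 455 to 569 CPM in S288C and YMR050C 77.3 to 141 CPM.

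The lowest called copies with counts in every library differed by medium. In Y55 YPL257W-B read 0.552 to 0.965 CPM against 711 to 784 in S288C (log2 fold change −9.95, SE 0.51). In UWOP YML039W read 0.970 to 1.58 CPM against 382.4, 42.7 and 338.5 in S288C (−7.72, SE 1.68, adjusted p = 0.0011), where S288C library 33 stood apart. In caffeine the lowest were YLR227W-B in YPS (−9.50, SE 0.45), YBR012W-B in Y55 (−9.32, SE 0.65) and YAR009C in UWOP (−9.09, SE 0.80). Other copies also varied widely between libraries of S288C. In caffeine YLR035C-A read 1.41, 304.7 and 2.51 CPM and YAR009C 294, 978 and 279 CPM, with S288C caffeine library 37 high in both.

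Caffeine responses are given relative to TMM scaling, which sets most transcripts to no change. With library totals in place of TMM, an alternative chosen after seeing the data, the median of all transcripts moved by up to 0.40 on the log2 scale. Between caffeine and no caffeine the numbers of all transcripts called higher and lower were 1763 and 1599 in S288C, 1310 and 1283 in YPS, 553 and 369 in Y55 and 938 and 833 in UWOP. With library totals they were 3314 and 614, 2328 and 429, 950 and 168, and 1889 and 308. For YPS, Y55 and UWOP against S288C in caffeine, the splits of 1567 and 1410, 1947 and 1837, and 1799 and 1688 became 1113 and 2088, 1248 and 2796, and 1180 and 2616. The member counts against S288C were nearly the same under both scalings, with 33 in place of 31 lower for Y55 in caffeine.

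Ty1 rose with caffeine in YPS and UWOP. The Ty1 sum of YPS went from 195 to 269 CPM without the drug to 433 to 600 CPM with it (log2 fold change 1.30, SE 0.22, adjusted p = 0.000127), and that of UWOP from 1336 to 1525 to 2686 to 3136 CPM (1.03, SE 0.22, adjusted p = 0.00176), without overlap in either strain. S288C went from 15624 ± 744 to 19312 ± 2675 CPM (SD, n = 3), and its value of 0.31 (SE 0.22) did not pass the test (adjusted p = 0.246), although the 3 caffeine libraries lay above the others. Y55 had 1642 ± 396 and 2554 ± 879 CPM with overlapping libraries (0.64, SE 0.22, adjusted p = 0.0547). Without Y55 caffeine library 39 its value was 0.89 (adjusted p = 0.00333), and without Y55 library 35 it was 0.82 (adjusted p = 0.0255). With library totals the sum was also called in S288C, at 0.70 (adjusted p = 0.0107).

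The other families responded in different strains. Ty2 fell in S288C, from 501.8 to 532.4 CPM to 314.3 to 378.0 CPM (log2 fold change −0.59, SE 0.18, adjusted p = 0.00946), and rose in UWOP, from 64.6 to 71.4 to 96.7 to 118.3 CPM (0.68, SE 0.18, adjusted p = 0.00999). The S288C call was lost with library totals (−0.20, adjusted p = 0.402), without the copy with most counts (−0.46, adjusted p = 0.0651) and with YLR035C-A in the Ty2 sum (−0.26, adjusted p = 0.343), and the UWOP call without the 4 libraries low in URA3 (0.57, adjusted p = 0.0774). Ty3 rose in S288C, from 194.8 to 204.0 CPM to 307.5 to 379.8 CPM (0.84, SE 0.10, adjusted p = 9.5e-07), and in YPS, from 448.9 to 545.8 to 670.0 to 768.0 CPM (0.48, SE 0.10, adjusted p = 0.000686). In Y55 and UWOP Ty3 did not pass the test (0.10 and 0.12), and with library totals UWOP passed (0.33, adjusted p = 0.022). The Ty4 member YJL113W rose in S288C to 16.54, 17.84 and 19.50 CPM, above all 3 libraries without caffeine (1.12, SE 0.21, adjusted p = 0.000461). In YPS it stood at 8.53, 13.8 and 12.5 CPM with caffeine (0.42, SE 0.21, adjusted p = 0.128), and it passed without library 30 (0.60) and with library totals (0.68, adjusted p = 0.0236).

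Of the 38 members, 13 rose and 1 fell with caffeine in S288C (27.5 and 25.0% of all transcripts), 7 rose and 0 fell in YPS (20.5 and 20.0%), 2 rose and 2 fell in Y55 (8.64 and 5.77%) and 9 rose and 0 fell in UWOP (14.7 and 13.0%). Of the members not called lower in YPS and UWOP, DESeq2 called 2 in YPS and 0 in UWOP, and 1 (YGR038C-B) and 0 had an unadjusted edgeR p below 0.05. In UWOP the 9 became 1 without the 4 libraries low in URA3, which leaves 2 libraries a group, and in Y55 the 2 higher became 7 without caffeine library 39. With library totals, 20, 11, 4 and 14 members were higher in S288C, YPS, Y55 and UWOP. In YPS and Y55 the share of members called higher was at or below that of all transcripts.

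In S288C the 10 Ty1 copies that rose had means of 2.38 (YDR316W-B) to 504 CPM (YML045W) without caffeine. YNL284C-B went from 101.6, 100.4 and 107.3 to 686.5, 976.5 and 732.9 CPM (log2 fold change 2.95, SE 0.32, adjusted p = 3.7e-07). YNL054W-B went from 108.4, 121.7 and 108.5 to 523.5, 604.1 and 603.9 CPM (2.35, SE 0.22, adjusted p = 4.5e-08). YDR210C-D went from 89.1, 112.6 and 106.3 to 277.1, 469.5 and 345.6 CPM (1.83). In each of these the caffeine libraries lay wholly above the others. Further Ty1 copies called higher in S288C were YDR316W-B (3.10, SE 0.73, adjusted p = 0.0021), YBR012W-B (1.92), YGR161C-D (1.78), YER160C (1.28), YGR038C-B (1.04), YML045W (0.92) and YMR050C (0.92). The 3 leading copies did not pass the test, and YDR365W-B read 1923, 2630 and 2236 CPM with caffeine. Among Ty2 copies YOR192C-B fell from 176.1 to 186.0 CPM to 87.6 to 110.8 CPM (−0.82, SE 0.20, adjusted p = 0.002), a call that library totals removed (−0.42). The 9 copies with form 1 of the first window held 21.4% of the Ty1 sum in S288C with caffeine.

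In the other strains copies with high and with very low levels rose. In YPS YBL005W-B went from 57.8, 62.2 and 80.4 to 175.0, 228.3 and 210.6 CPM (log2 fold change 1.61, SE 0.28, adjusted p = 0.0002). YMR045C (1.49) and YNL284C-B (1.50) also rose in YPS, whereas YNL054W-B read 56.8, 74.7 and 81.7 CPM with caffeine, overlapping its 49.9 to 67.1 without. YGR027W-B, with 0 counts in YPS without caffeine, reached 1.36, 7.77 and 9.93 CPM, and YLR227W-B went from 0, 0 and 0.444 to 0.405, 1.09 and 1.65 CPM (2.81, SE 0.69, adjusted p = 0.003). In UWOP YPR137C-B went from 418.0, 396.7 and 462.9 to 837.2, 783.8 and 808.5 CPM (0.93), and YDR210C-D (1.47), YJR027W (1.59), YGR038C-B (1.08), YER138C (1.66), YDR316W-B (1.76, SE 0.62, adjusted p = 0.045) and YNL054W-B (0.76, SE 0.21, adjusted p = 0.011) rose as well. YLR157C-B, with 0 counts in UWOP without caffeine, was called at 1.41, 6.31 and 0 CPM. YNL054W-B and YDR316W-B lost their UWOP call without the 4 libraries low in URA3 (adjusted p = 0.099 and 0.254), and YDR316W-B also lost it without any 1 of the 6 libraries. In Y55 YER138C rose (2.04, SE 0.41, adjusted p = 0.002) and YDR210C-D rose (1.12, SE 0.34, adjusted p = 0.036). YDR210C-D lost its Y55 call without library 27, 31, 43 or 47 (values 0.68 to 1.16). YOR142W-B fell in Y55 from 6.05, 8.04 and 7.36 to 0.648, 0 and 0 CPM (−4.77, SE 1.01, adjusted p = 0.0048).

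**Figure D4:**
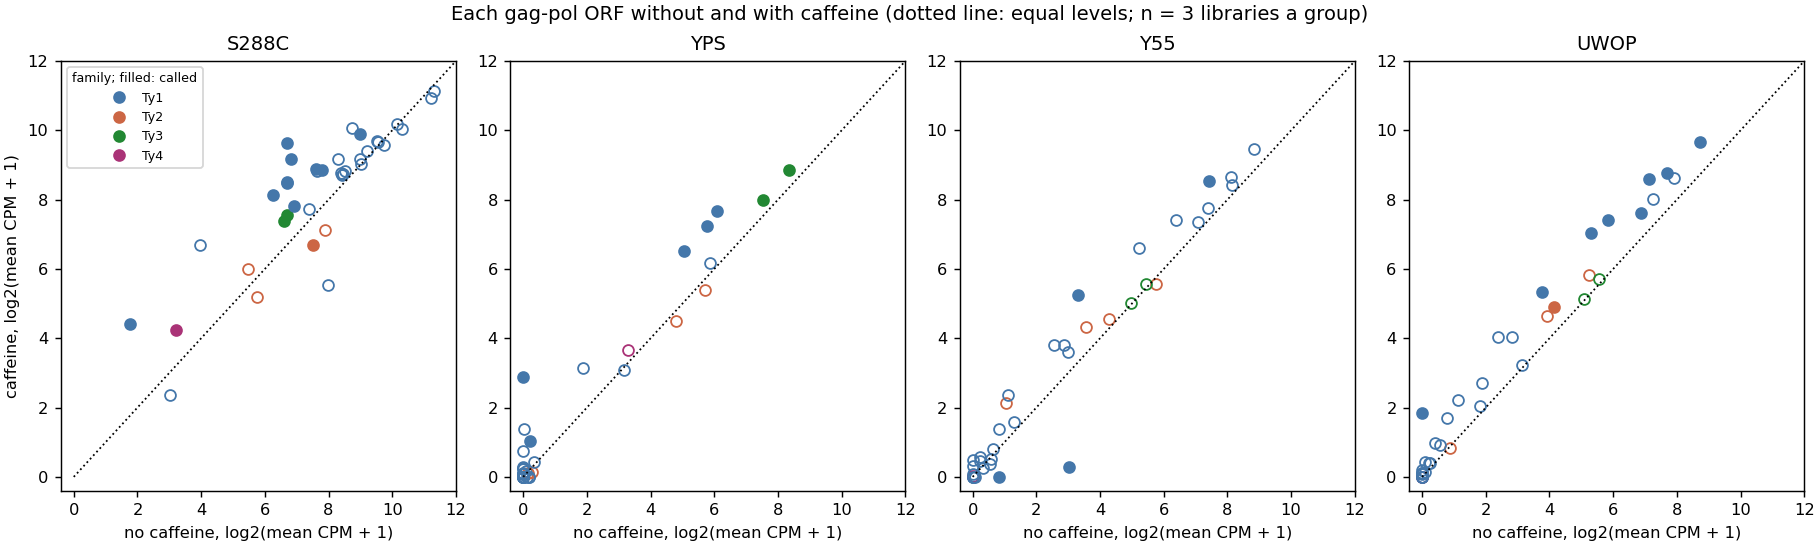
Mean expression of each member with caffeine (vertical) against without caffeine (horizontal), both as log2(mean CPM + 1), in 1 panel per strain; filled points passed the edgeR test and the dotted line marks equal levels. In S288C the filled Ty1 points have means of 2.38 to 504 CPM without caffeine, and the 3 leading copies are not filled.

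The caffeine responses of YPS, Y55 and UWOP were compared with that of S288C in the same fit, all 3 sharing the S288C libraries. Of 38 members 3 had a higher and 2 a lower response in YPS (6.86 and 5.94% of all transcripts), 3 and 7 in Y55 (15.2 and 13.9%) and 3 and 3 in UWOP (11.0 and 11.2%). Under library totals the splits of all transcripts, 439 and 380, 970 and 890, and 702 and 716, became 257 and 574, 425 and 1672, and 357 and 1095. The Ty1 sum responded more in YPS than in S288C (difference 0.99 on the log2 scale, SE 0.31, adjusted p = 0.0381), a call that was lost with library totals (0.86, adjusted p = 0.0746) and when any of 9 of the 12 libraries was left out. For Y55 and UWOP the Ty1 differences were 0.33 (adjusted p = 0.445) and 0.72 (adjusted p = 0.0970). The Ty3 response was smaller in Y55 (−0.74, SE 0.14, adjusted p = 0.00081) and UWOP (−0.72, SE 0.14, adjusted p = 0.00138). The Ty2 response was higher in UWOP (1.27, SE 0.26, adjusted p = 0.00187) and Y55 (0.75, SE 0.26, adjusted p = 0.0350), where it was lost without the 4 libraries low in URA3 (0.47) and when any of 9 libraries was left out.

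YNL054W-B was the single copy whose response differed from S288C in all 3 strains, with differences of −2.04 in YPS (SE 0.30), −2.06 in Y55 and −1.60 in UWOP on the log2 scale. Its mean was higher with caffeine in each strain. YER138C went the other way, with a difference of 2.32 in Y55 and 1.94 in UWOP, where it rose from low levels while its S288C libraries overlapped.

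YPS was also set against Y55 and UWOP. Against Y55, 8 members were higher and 15 lower in YPS without caffeine (8.53 and 11.1% of all transcripts) and 9 and 15 with it (14.4 and 13.8%). Against UWOP the numbers were 7 and 14 (13.2 and 13.3%) and 8 and 16 (12.4 and 11.5%). The Ty1 sum was lower in YPS by −2.89 against Y55 and −2.67 against UWOP, and by −2.23 and −2.40 in caffeine, and Ty3 was higher by 2.81, 2.70, 3.19 and 3.06. The Ty2 sums differed little, by −0.08 and 0.19 without caffeine (adjusted p = 0.799 and 0.482), and were lower in YPS in caffeine by −0.55 (adjusted p = 0.0303) and −0.80 (adjusted p = 0.00294). The first of these was lost without the 4 libraries low in URA3 (−0.50, adjusted p = 0.0697). With all gag-pol frames of the files in the Ty2 sum the direction turned, with YPS higher by 0.64 against Y55 and 0.41 against UWOP in caffeine and by 1.06 and 1.18 without it. Both YBL005W-B and YMR045C were higher in YPS than in Y55 and UWOP, while YNL054W-B, read in all 3, was lower in YPS by −1.22 and −1.02 without caffeine.

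Between Y55 and UWOP 0 members were called in either medium by edgeR and 0 by DESeq2, where 0.0625% of all transcripts were higher and 0.0% lower in each. At an unadjusted p below 0.05 there was 1 member in each medium, YPL257W-B without caffeine and YOR142W-B with it. The Ty1 sum differed by 0.22 without and −0.17 with caffeine, Ty2 by 0.27 and −0.25, and Ty3 by −0.11 and −0.13 on the log2 scale, and none passed the test (adjusted p = 0.972 and 1). Leaving out Y55 caffeine library 39 turned the Ty1 difference in caffeine to 0.08.

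Gag alone is annotated as a separate open reading frame at many elements, and 46 such frames were in the files, of which 16 passed the filter on low counts. Against S288C without caffeine 3 were higher and 1 lower in YPS (21.0 and 17.1% of all transcripts). The numbers were 7 and 1 in Y55 (20.0 and 13.9%) and 8 and 1 in UWOP (20.8 and 15.8%). A frame nearly unread in S288C could pass the filter only through groups where it was high. The counts of higher gag frames were thus shaped by the filter and are no test of a difference. The 32 Ty1 gag frames held 0.176% of Ty1 gag and gag-pol CPM in S288C (27.6 CPM), 13.1% in YPS, 12.3% in Y55 and 15.7% in UWOP. Gag frames repeat the start of gag-pol frames, so reads were split between them by estimation. YDR170W-A, a Ty1 gag frame, went from 17.2 to 107.3 CPM with caffeine in S288C and from 19.9 to 60.7 CPM in YPS. Another 10 gag-pol frames in the files were no members, and 8 were tested. Beside the same shares of all transcripts, 1 was higher and 5 lower in YPS, and 7 were lower in both Y55 and UWOP. These other gag-pol frames held 56.9% of the Ty2 CPM in S288C and 71.4% in YPS. Among them YFL002W-A is identical to YGR161W-B and had the same level, 237.46 CPM in S288C.

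Regulators of Ty1 were followed as lists of activators, cofactors and restrictors. Of 16 activators of Ty1 transcription 4 were higher and 1 lower in YPS than in S288C without caffeine (21.0 and 17.1% of all transcripts). In Y55 4 were higher and 0 lower (20.0 and 13.9%), and in UWOP 5 were higher and 2 lower (20.8 and 15.8%). The list medians were 0.20, 0.09 and 0.14 on the log2 scale. STE12, the transcription factor of the mating and filamentation pathways, was higher by 0.39, 0.56 and 0.59. SPT3, a subunit of the SAGA coactivator, was higher by 0.56, 0.29 and 0.31, and GCR2, which acts with Gcr1 on glycolytic genes, by 0.28, 0.39 and 0.43. With caffeine 2 activators rose and 4 fell in S288C (27.5 and 25.0% of all transcripts), and 7 fell in YPS (20.0%). In Y55 1 fell (5.77%), and in UWOP 1 rose and 6 fell (14.7 and 13.0%). TYE7, a helix-loop-helix activator, fell in all 4 strains, by 1.19, 1.09, 0.92 and 1.08 on the log2 scale.

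Among 13 cofactors of Ty1 RNA and integration, 3 were higher and 2 lower in YPS, 3 and 4 in Y55, and 2 and 3 in UWOP. The shares of all transcripts given beside the activators hold for the cofactors and restrictors too, without and with caffeine. DHH1, a decapping helicase, was lower by −0.81 in Y55 and −0.78 in UWOP, and XRN1, the cytoplasmic exonuclease, by −0.32, −0.33 and −0.41. With caffeine 2 cofactors rose and 6 fell in S288C, 5 fell in YPS, 1 rose and 1 fell in Y55, and 3 fell in UWOP. Of 12 restrictors of transposition 4 were higher and 1 lower in YPS, 2 and 1 in Y55, and 3 and 1 in UWOP. FUS3, a mitogen-activated protein kinase of the mating pathway that restrains Ty1, was higher by 0.89, 0.82 and 0.85, and with caffeine it rose by 0.59 in S288C and 0.45 in UWOP. The 1 lower restrictor in each strain was SGS1, at −0.35, −0.31 and −0.35. RTT109 fell with caffeine in S288C, YPS, Y55 and UWOP, by −0.92, −0.57, −0.44 and −0.78. With caffeine 3 restrictors rose and 3 fell in S288C, 2 fell in YPS, 1 fell in Y55, and 1 rose and 4 fell in UWOP.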

How the data were processed

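Total RNA of 24 samples was made into stranded mRNA libraries. The authors trimmed reads (Trimmomatic 0.36) and deposited estimated counts, effective lengths and TPM per transcript from kallisto 0.44.0 on R64. No strand option of kallisto is stated in the sources used here, so antisense overlap is uncertain. TPM and 6 tables of the authors' DESeq2 fold changes and p-values (version given as 3.8) were not used. Estimated counts were rounded. All 24 libraries entered 1 edgeR 4.0.16 fit (R 4.3.3, limma 3.58.1) with filterByExpr, TMM and a quasi-likelihood test over 8 groups. Benjamini-Hochberg adjustment covered 6400 transcripts, or 6366 in a table with each family's members replaced by their sum, with a threshold of 0.05. The SE is the fold change divided by the root of F. Where no library of a group exceeded 3 counts, only a bound is given. CPM per kb used the effective lengths deposited by the authors. Scripts were tested on simulated data. Depths of 8714049 to 29524968 counts limit precision for copies near 3 counts.

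The members and gene lists were chosen with earlier results of these data known. Copies named were the 3 highest of each family in S288C, the highest in each other strain, the highest and lowest called copy of each comparison with a mean of at least 10 CPM and more than 3 counts in each library, and copies under 4 counts throughout a strain with a mean of 10 CPM or more in another. Other called copies were named after their values were seen. YLR035C-A, first grouped with Ty2, was placed in Ty1 by identity. YPL060C-A was counted as a Ty4 gag-pol frame and YDR170W-A as a Ty1 gag frame, neither a member. Alternatives were DESeq2 1.42.0, RLE size factors, length offsets, no filter, a threshold of 0.01, fits of only the groups compared, other sets of frames in a sum, and leaving out each library. Chosen after seeing the data were library totals, leaving out the 4 libraries low in URA3, a block for runs of library numbers, and YLR035C-A in Ty2.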

Additional observations from a re-analysis of the deposited data

Results flagged for a closer look

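The differences between caffeine responses that passed the edgeR interaction test are gathered here, as log2 differences from the S288C response. For family sums they were 0.99 for Ty1 in YPS, 0.75 for Ty2 in Y55 and 1.27 in UWOP, and −0.74 for Ty3 in Y55 and −0.72 in UWOP. In YPS the named single copies were YBL005W-B at 1.31 (adjusted p = 0.0313), which lost the call without any of 9 libraries, and YNL054W-B at −2.04 (adjusted p = 0.000134). YNL054W-B also differed in Y55 (−2.06) and UWOP (−1.60). In Y55 and UWOP the differences were 2.32 and 1.94 for YER138C, 1.59 and 1.54 for YGR161W-B, and 1.16 and 1.60 for YOR192C-B. The Ty3 copies differed by −0.74 and −0.71 for YGR109W-B and by −0.75 and −0.75 for YIL082W-A. The UWOP value of YER138C lost its call without the 4 libraries low in URA3 (1.57, adjusted p = 0.0742). Y55 and UWOP are nearly the same in these libraries, so their values do not count as separate evidence.

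Ty5, a silent family outside the 38 members, showed reads in some caffeine libraries. YCL074W averaged 0.573 CPM in S288C with caffeine, from 30, 0 and 20 counts, and had 0 counts in S288C without it. YCL075W averaged 0.205 CPM there, from 10, 0 and 8 counts, against 1, 0 and 0 without caffeine. In caffeine YCL074W also had 12, 0 and 9 counts in UWOP and 1, 0 and 9 in Y55. YCL075W had 7, 6 and 0 in UWOP and 2, 0 and 6 in Y55. Both had 0 counts in YPS with caffeine, and in YPS, Y55 and UWOP without it.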

How the results depend on the processing

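RLE size factors, length offsets and no filter on low counts changed no call of a family sum or named copy and moved no count by over 1.5 times. Each library has a number of its own in the labels, so none pairs samples, but the numbers form 3 runs of 8 with 1 library of every group. In a fit with these runs as a replicate block, chosen after seeing the data, 2 members in place of 1 were lower for caffeine in S288C, while no other call changed and no other count moved by over 1.5 times. Deviations from the group means correlated above 0.1 in 27 of 84 pairs of libraries of the same run (median 0.0103), and 6 of 24 libraries correlated best with their own run, so the runs were not treated as pairs. Without the 4 libraries low in URA3, Ty2 was −0.50 in YPS against Y55 in caffeine, 0.57 for caffeine in UWOP, −0.0913 for caffeine in Y55 and 0.47 for the Y55 difference, and 1 member was higher for Y55 against UWOP without caffeine, for caffeine in UWOP and for the UWOP difference, and 1 lower for Y55 against UWOP in caffeine and for caffeine in Y55. With DESeq2, Ty1 passed for caffeine in Y55 (0.66), 4 members were higher for caffeine in Y55, 11 higher and 2 lower in YPS, and 5 higher and 4 lower for the YPS difference. With YLR035C-A in Ty2, that sum was −0.38 in YPS against Y55 in caffeine, −0.26 for caffeine in S288C and 0.40 for the Y55 difference. At a threshold of 0.01 the calls lost were Ty1 in the YPS difference (0.99), Ty2 in YPS against Y55 in caffeine (−0.55) and the Y55 difference (0.75), and Ty4 in YPS in caffeine (−0.63), with 4 members higher for caffeine in UWOP, 1 higher and 1 lower in Y55, 1 higher for the UWOP difference and 1 higher and 1 lower for the YPS difference. With all gag-pol frames of a family, Ty2 in YPS was 0.41 in and 1.18 outside caffeine against UWOP and 0.64 and 1.06 against Y55, and Ty4 in YPS was −0.0197 against S288C, 0.41 for caffeine and −0.85 for the difference. With gag frames added too these were 0.46, 1.17, 0.68, 1.05, −0.0285, 0.41 and −0.86, and Ty1 for caffeine in Y55 was 0.68. With library totals, caffeine gave Ty1 0.70 in S288C and 0.78 in Y55, Ty2 −0.20 in S288C, Ty3 0.33 in UWOP and Ty4 0.68 in YPS, the differences were Ty1 0.86 and Ty3 −0.49 in YPS and Ty2 0.48 in Y55, Ty2 in YPS against Y55 in caffeine was −0.45, and 20 members were higher and 0 lower in S288C, 14 higher in UWOP, 4 in Y55 and 11 in YPS. With only the groups compared, Ty1 passed in the UWOP difference (0.72), Ty2 did not in the Y55 difference (0.74), and members were 3 higher in UWOP and 2 in Y55 against S288C, 0 higher and 0 lower for caffeine in Y55, 5 higher for the UWOP difference and 3 lower for caffeine in S288C. Without the copy with most counts, Ty1 was 0.91 in the YPS difference, and Ty2 was −0.0784 in YPS against UWOP, −0.46 for caffeine in S288C and 0.48 in the Y55 difference. Leaving out each library gave 1 to 2 members higher in Y55 against S288C, 1 to 2 lower for caffeine in S288C, 1 to 7 higher and 1 to 2 lower in Y55, 5 to 8 higher in UWOP, 1 to 4 higher and 1 to 3 lower for the YPS difference, and 0 to 1 lower for Y55 against UWOP in caffeine. Over the same fits Ty4 in YPS was −0.0666 to 0.12 against S288C, −0.77 to −0.45 in caffeine and 0.28 to 0.60 for caffeine, Ty1 for caffeine in Y55 0.42 to 0.89, Ty2 for caffeine in Y55 −0.0701 to 0.39, the differences 0.89 to 1.16 for Ty1 in YPS, −0.45 to −0.30 for Ty3 in YPS and 0.49 to 0.99 for Ty2 in Y55, Ty2 in YPS against Y55 −0.29 to 0.16 and −0.69 to −0.39 in caffeine, and Ty1 in Y55 against UWOP in caffeine −0.39 to 0.0823. Where not given in the text, the cause of these changes was not tested. Shared sequence between copies limits single-copy values.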
